A study of Mus musculus with 6 samples.

Results

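The nuclear-encoded subunits of respiratory complexes II to V, with cytochrome c, were examined in lung RNA of wild type mice fed either a control diet (3 mice) or a high fat diet (3 mice). Each mouse had its own array. Members were all probe sets whose platform annotation named a single gene of the Sdh, Uqcr, Cyc1, Cycs, Cox4 to Cox8 or Atp5 families. Cox8b and Cox7a1 were left out by this rule. It took 94 of 45101 probe sets on the array, which represent 46 of the 18193 genes that had a probe set of their own. Both groups were lung samples of wild type animals. By label they differed in the diet and in the animal numbers, which form a separate range for each diet, so anything that goes with those ranges cannot be told apart from diet. Strain, sex, age and the length of feeding are not given in the labels. Total RNA was labelled with biotin for Affymetrix arrays, and the deposited signals are MAS5 intensities, in which each array had been scaled to the same trimmed mean. A signal is therefore relative to the rest of its array. All 10 lung epithelial and endothelial markers were above the filter on dim signals, from Foxj1 of ciliated cells, the dimmest (364 to 1361), to surfactant protein C (Sftpc, 32996 to 69407).

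The respiratory chain moves electrons from metabolic fuels to oxygen in the inner mitochondrial membrane and stores the energy as a proton gradient. Complex II, succinate dehydrogenase, passes electrons from succinate to ubiquinone. Complex III hands them to cytochrome c, and complex IV, cytochrome c oxidase, passes them on to oxygen. Complex V, the ATP synthase, lets protons flow back and makes ATP. Complexes III, IV and V combine subunits encoded in mitochondrial DNA with subunits encoded in the nucleus, whereas all subunits of complex II are nuclear. The lung is known for its own isoform of cytochrome c oxidase subunit 4.

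Many subunits of complexes III, IV and V had higher signals in lungs of high fat mice, and the differences were largest for the small subunits of the ATP synthase that sit in the membrane. Each gene was represented by its brightest probe set above the filter on dim signals. Of 46 genes, 45 had such a probe set, and 1, the testis isoform Cox7b2, did not (a mean signal of 19.1). Of the 45, 20 rose in high fat mice, 0 fell and 25 were not called, where a call is an adjusted p under 0.05 in limma over all 27022 tested probe sets. Over all 12689 gene representatives, 9.37 percent were called, 6.27 percent higher and 3.1 percent lower. In whole lung, a change in the number of cells of a type and a change in RNA per cell cannot be told apart. The p-values rest on the spread between these mice, which limma pools in part over probe sets of like signal. Among genes with a mean signal of 2000 or more, where 36 of the 45 members lie, 9.87 percent of all genes and 16 of the 36 members were called higher, and 4.24 percent of all genes and 0 members lower. The groups did not overlap for 26 member genes with high fat mice higher and for 2, Cox7c and Cox8c, with high fat mice lower, against 19.7 and 12.1 percent of all genes. The median log2 difference, high fat minus control, was 0.5 over the members and 0.06 over all genes. With the p-values adjusted over gene representatives alone, which called 6.75 percent of all genes (4.56 percent higher, 2.2 percent lower), 16 members were called, and the 4 lost were Atp5g2, Cox4i1, Cox8a and Cycs. With each array centred on its median, 31 members were called higher and 80.1 percent of all probe set calls were higher, against 35.9 percent with the deposited scaling, and with quantile normalization these were 16 members and 44.8 percent. With 1 mouse left out the count of 20 ran from 13 to 17, and it was 13 without control replicate 2 and 13 without control replicate 3, and 12 of the 20 genes stayed called in all 6 such fits.

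**Figure D1:**
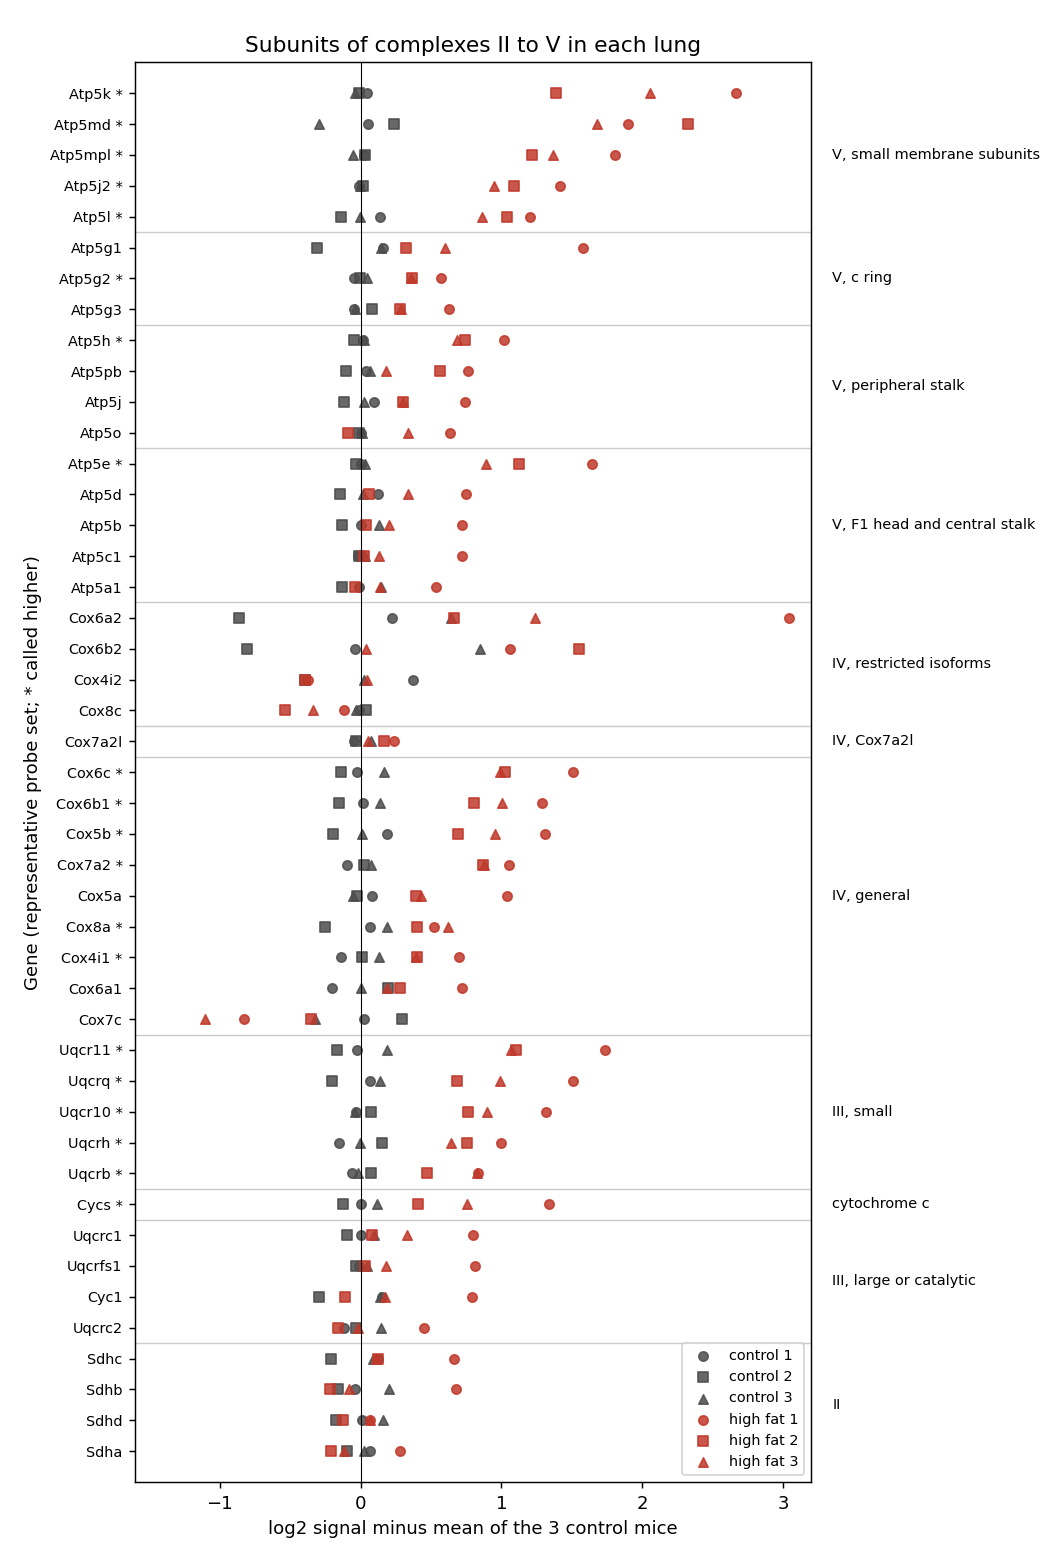
Log2 signal of the representative probe set of each of 45 genes in each mouse, minus the mean of the 3 control mice, with control mice in grey, high fat mice in red and a marker shape for each replicate number. Genes are grouped by complex and subunit role, and stars mark the 20 genes called higher; high fat replicate 1 is the highest high fat mouse for 39 of the 45 genes.

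Complex V held the 3 called genes with the largest differences, Atp5k, Atp5md and Atp5mpl. Of its 17 genes, 8 rose, 0 fell and 9 were not called, with a median log2 difference of 0.5. The genes were divided by their place in the enzyme, a division made after their values were seen, so the difference between the divisions was not tested. All 5 genes of the small membrane subunits rose, against 1 of 5 genes of the F1 head and central stalk, 1 of 4 of the peripheral stalk and 1 of 3 of the c ring. With each array centred on its median, the counts were 5, 2, 4 and 3. The divisions also differed in signal: Atp5k, Atp5md and Atp5mpl had mean signals of 1241, 948 and 1852, and the other complex V genes, Atp5j2 and Atp5l included, lay above 2000. Over all member genes the median log2 difference was 1.65 from 500 to 2000 (5 genes) and 0.47 at 2000 or more (36 genes). Over all genes it was 0.06 and 0.08. The part of signal level in the difference between the divisions was not tested.

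The small membrane subunits lie beside the c ring and help the enzyme form dimers. Atp5k, which encodes subunit e, had signals of 634, 607 and 598 in the controls and 3891, 1600 and 2552 in high fat mice. All 3 high fat mice lay far above the controls, although they differed among themselves. The rise was 4.1-fold (log2 2.04 ± 0.27, SE, limma adjusted p = 0.00536). Atp5md, whose product is known as DAPIT, had signals of 498, 565 and 391 in control and 1786, 2403 and 1537 in high fat mice. Here high fat replicate 2 was the highest, and the rise was 3.91-fold (log2 1.97 ± 0.2, SE, limma adjusted p = 0.00238). Atp5mpl, which encodes a small proteolipid of the synthase, went from 1134, 1138 and 1075 to 3900, 2593 and 2878. The controls were nearly equal and the rise was 2.76-fold (log2 1.46 ± 0.16, SE, limma adjusted p = 0.00276). Atp5j2, for subunit f, rose 2.22-fold and Atp5l, for subunit g, 2.05-fold (limma adjusted p = 0.0039 and 0.00476). These 5 genes stayed called with any 1 mouse left out. The gene Atp5j2 lost its call when its probe sets, 1 of them dim, were averaged (log2 0.48, limma adjusted p = 0.0891).

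The catalytic head of the synthase holds the alpha and beta subunits, which bind nucleotides, and the gamma, delta and epsilon subunits form the central stalk. Atp5e, for epsilon, had signals of 1382, 1352 and 1412 in control and 4328, 3007 and 2565 in high fat mice. It rose 2.33-fold without overlap of the groups (limma adjusted p = 0.00697). Atp5b, for beta, had signals of 11664, 10590 and 12696 in control and 19139, 11938 and 13393 in high fat mice. High fat replicate 2 lay within the control range and the difference was not called (log2 0.32 ± 0.18, SE, limma adjusted p = 0.263). The same held for Atp5a1, for alpha (log2 0.21, limma adjusted p = 0.409), Atp5c1, for gamma (0.29, 0.296) and Atp5d, for delta (0.38, 0.177). For all 5 genes of the head and central stalk high fat replicate 1 exceeded every control, and for only 1, Atp5e, did high fat replicate 2. This held for the brightest probe set of each gene. In a second bright probe set of Atp5a1 (log2 0.51, limma adjusted p = 0.11) and of Atp5d (0.48, 0.0832) all 3 high fat mice lay above the controls, though neither was called. Without high fat replicate 1 the median log2 difference of these 5 genes was 0.12 in place of 0.32, and that of the 5 small membrane subunits was 1.29 in place of 1.46.

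In the peripheral stalk, which holds the head still, Atp5h, for subunit d, rose 1.76-fold (7951 ± 207 to 14060 ± 1792, SD, n = 3 each, limma adjusted p = 0.00803). A second Atp5h probe set, nearly as bright, was not called (log2 0.44, limma adjusted p = 0.0623), though all 3 high fat mice lay above the controls. Atp5pb, for subunit b, Atp5j, for coupling factor F6, and Atp5o, for the oligomycin sensitivity protein, had log2 differences of 0.5, 0.45 and 0.29 and were not called. The c ring turns as protons pass, and 3 genes, Atp5g1, Atp5g2 and Atp5g3, encode its subunit c. Their signals did not overlap between the groups for any of the 3. Only Atp5g2 was called (1.35-fold, limma adjusted p = 0.0376), and its call was lost in each fit with 1 mouse left out (adjusted p of 0.0547 to 0.11). Atp5g1 had signals of 1896, 1374 and 1882 in control and 5077, 2122 and 2569 in high fat mice. Its larger difference rested in part on high fat replicate 1 (log2 0.83, and 0.46 without that mouse).

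In complex III the small subunits rose and the large or catalytic ones were not called. This division was also made after the values were seen, so the difference between its parts was not tested. Of its 9 genes other than cytochrome c, the 5 small subunits rose and the 4 others were not called. The median log2 difference was 0.99 for the small and 0.31 for the other subunits, and 0.83 and 0.07 without high fat replicate 1. With arrays centred on their median 2 of the 4, Uqcrc1 and Uqcrfs1, were called as well. Uqcr11 had signals of 1251, 1133 and 1445 in control and 4237, 2733 and 2667 in high fat mice. It rose 2.47-fold (log2 1.3 ± 0.19, SE, limma adjusted p = 0.00675). Uqcrq rose 2.09-fold and Uqcr10 1.99-fold. Uqcrh, the hinge protein that contacts cytochrome c1, rose 1.74-fold, and Uqcrb, which lies at the ubiquinone site, 1.64-fold (limma adjusted p = 0.0108 and 0.0178). The calls of Uqcrq, Uqcrh and Uqcrb were each lost in at least 1 fit with 1 mouse left out (adjusted p up to 0.0647, 0.0521 and 0.0797), so that 3 of the 5 small subunits were called without control replicate 2 and 3 without control replicate 3.

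The large or catalytic subunits of complex III are cytochrome c1 (Cyc1), the Rieske iron-sulphur protein (Uqcrfs1) and the core proteins Uqcrc1 and Uqcrc2. Uqcrfs1 had signals of 3128, 3088 and 3248 in control and 5532, 3219 and 3579 in high fat mice. High fat replicate 1 alone stood far above the controls (log2 difference 0.34 ± 0.19, SE, limma adjusted p = 0.252). Cyc1, Uqcrc1 and Uqcrc2 had log2 differences of 0.28, 0.4 and 0.09. High fat replicate 2 lay below the highest control for all 4 of these genes by their brightest probe set. A second Uqcrc2 probe set, nearly as bright, had all 3 high fat mice above the controls (log2 0.73, limma adjusted p = 0.0704). Cycs encodes the electron carrier cytochrome c itself. Its signal rose 1.78-fold (5842, 5345 and 6325 against 14741, 7726 and 9831, limma adjusted p = 0.0373). Its call held in 1 of 6 fits with 1 mouse left out. The other bright Cycs probe sets were not called (log2 0.61 and 0.52, limma adjusted p = 0.163 and 0.122). The groups overlapped in the first of these and not in the second.

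Complex II was the complex without a called gene. For Sdha, Sdhb, Sdhc and Sdhd limma called 0 of the 4, also at an unadjusted p under 0.05. The log2 differences ran from -0.02 to 0.3 with a median of 0.06. Sdha, the flavoprotein that oxidises succinate, had signals of 6398, 5699 and 6209 in control and 7395, 5282 and 5606 in high fat mice, so the groups overlapped. Sdhb, the iron-sulphur subunit, had log2 0.12 ± 0.22 (SE) and Sdhd, a membrane anchor, 0 ± 0.12 (SE). Under median centring the median was 0.34 for complex II and 0.33 for all genes, and under quantile normalization -0.01 and 0.1.

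In complex IV, 6 of 14 tested genes rose, 0 fell and 8 were not called. All 6 belong to the 9 subunits that most tissues express. Cox6c had signals of 4975, 4611 and 5684 in control and 14456, 10301 and 10080 in high fat mice, the largest rise among them (2.26-fold, log2 1.18 ± 0.16, SE, limma adjusted p = 0.00595). Cox6b1, which faces the intermembrane space, rose 2.05-fold, Cox5b, a zinc-binding subunit on the matrix side, 1.98-fold, and Cox7a2 1.91-fold. Cox7a2 varied little within the groups (7348, 8018 and 8264 against 16330, 14345 and 14451). Cox8a and Cox4i1 were called with smaller differences (1.43-fold and 1.41-fold, limma adjusted p = 0.0434 and 0.0463), and both calls were lost in every fit with 1 mouse left out. Cox5b kept its call in 4 of 6 such fits. Cox5a missed the threshold (log2 0.62, limma adjusted p = 0.0501), as did Cox6a1 (0.4, 0.153). Cox7c was measured by 2 dim probe sets with mean signals of 275 and 74.6, and neither was called (log2 -0.76 and -0.94, limma adjusted p = 0.0797 and 0.244).

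The member isoforms of complex IV that few tissues express were not called with the deposited scaling and diet as the only term. Cox8b and Cox7a1, which the rule left out of the members, were called higher in that fit (log2 2.65 and 2.32, limma adjusted p = 0.0148 and 0.0411). Cox4i2, the subunit 4 isoform of lung, had signals of 257, 151 and 201 in control and 153, 151 and 205 in high fat mice, fully overlapping (log2 -0.24 ± 0.27, SE). Cox6a2, the isoform of striated muscle, had signals of 1111, 523 and 1483 in control and 7825, 1510 and 2249 in high fat mice. Replicate 1 was set apart and replicate 2 barely exceeded the highest control (log2 1.65 ± 0.58, SE, limma adjusted p = 0.0924). With arrays centred on their median the gene Cox6a2 was called (limma adjusted p = 0.0404), as it was with the replicate number as a block (0.0359). The testis isoforms Cox6b2 and Cox8c had log2 differences of 0.88 and -0.33 with adjusted p of 0.229 and 0.254. Cox7a2l, which joins complexes III and IV into supercomplexes, had signals of 4516, 4564 and 4920 in control and 5511, 5242 and 4840 in high fat mice (log2 0.15, limma adjusted p = 0.361). Its 3 probe sets gave 0.15, -0.02 and 0.09.

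Because a ratio of 2 probe sets within an array is free of array scaling, 6 pairs of related genes were compared by their log2 ratio. Relative to the control mean, the ratio of Cox7a2l to Cox7a2 was 0.05, -0.06 and 0.01 in control and -0.81, -0.7 and -0.82 in high fat mice. The difference of -0.78 ± 0.05 (SE) reached the smallest p that 3 against 3 mice allow (two-sided exact permutation p = 0.1, 0.6 adjusted over the 6 pairs). The ratio of Cox4i2 to Cox4i1 differed by -0.74 ± 0.34 (SE, exact permutation p = 0.2) and that of Cox6a2 to Cox6a1 by 1.25 ± 0.78 (exact permutation p = 0.3). For Atp5g2 over Atp5g3 the difference was 0.03 ± 0.07 (SE, exact permutation p = 0.7), for Atp5g1 over Atp5g3 0.43 ± 0.33 (exact permutation p = 0.4) and for Cox6b2 over Cox6b1 -0.15 ± 0.63 (exact permutation p = 0.8). No pair passed the threshold, which the exact permutation test cannot reach with 3 against 3 mice.

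Over single probe sets, 82 of the 94 passed the filter, of which 36 were called higher, 2 lower and 44 not called. The background was 12.9 percent called, 4.63 percent higher and 8.27 percent lower over all tested probe sets. With 1 mouse left out, 20 to 33 were called higher, 22 without control replicate 2 and 20 without control replicate 3. From 0 to 2 were then called lower, 0 without control replicate 2, control replicate 3 or high fat replicate 1, and 1 without control replicate 1 or high fat replicate 2. Of 27 genes with 2 or more tested probe sets, 9 had all of them called higher, among them Atp5k (log2 2.04, 1.98 and 2.17), Cox5b (0.99, 0.84, 0.98 and 0.7) and Uqcr10 (0.99, 1.45 and 0.74). Probe sets of both signs occurred in 7 genes. The 2 probe sets called lower were dim ones of Atp5c1 (mean signal 224, log2 -1.1, limma adjusted p = 0.0247) and Sdha (mean signal 212, log2 -0.92, limma adjusted p = 0.0223), whose brighter probe sets did not fall. In the opposite direction, a dim probe set of Atp5a1 (mean signal 144) was called higher (log2 1.31, limma adjusted p = 0.0212). Of 12 tested member probe sets with a mean signal under 500, 1 was called higher and 2 lower (1.91 and 9.01 percent of all tested probe sets that dim). From 500 to 2000, 8 of 11 were called higher and 0 lower (6.87 and 8.18 percent of all). At 2000 or more, 27 of 59 were called higher and 0 lower (10.8 and 5.39 percent of all). Groups without overlap occurred in 50 member probe sets with high fat mice higher and 6 with high fat mice lower, against 14.6 and 21.7 percent of all. The other 12 member probe sets were too dim to be tested. Some _x_at and _s_at probe sets can also bind related transcripts or pseudogene copies. Without them, 24 of 57 member probe sets were called higher, against 36 of 82 with them.

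**Figure D2:**
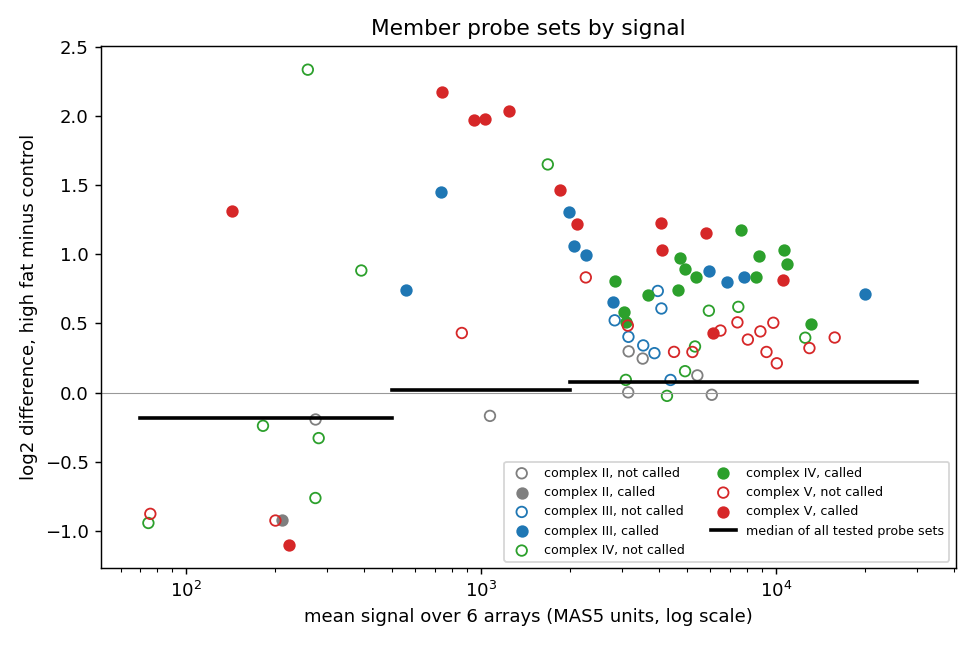
Log2 difference, high fat minus control, against mean signal over the 6 arrays (log scale) for the 82 tested member probe sets, coloured by complex, with called ones filled. Black lines give the median of all tested probe sets in 3 signal classes (-0.18, 0.02 and 0.08); most member probe sets above a signal of 500 lie over these lines.

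The 3 high fat mice did not carry the differences equally. As the mean log2 signal over the 45 genes relative to the control mean, the members stood at 0.95, 0.45 and 0.5 in high fat replicates 1, 2 and 3, and between -0.1 and 0.08 in the control mice. High fat replicate 1 exceeded every control for 41 of 45 genes, replicate 2 for 29 and replicate 3 for 33. In complex II the means were 0.42, -0.11 and -0.01, so only replicate 1 lay above the controls (-0.16 to 0.12). For the small membrane subunits of complex V they were 1.8, 1.41 and 1.38, and for the small subunits of complex III 1.28, 0.76 and 0.89. Without both mice numbered 1, 15 member genes were called higher, including all 5 small membrane subunits of complex V and 4 of 5 small subunits of complex III. The small membrane subunits had a median log2 difference of 1.3 in that fit, the F1 head and central stalk 0.12.

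**Figure D3:**
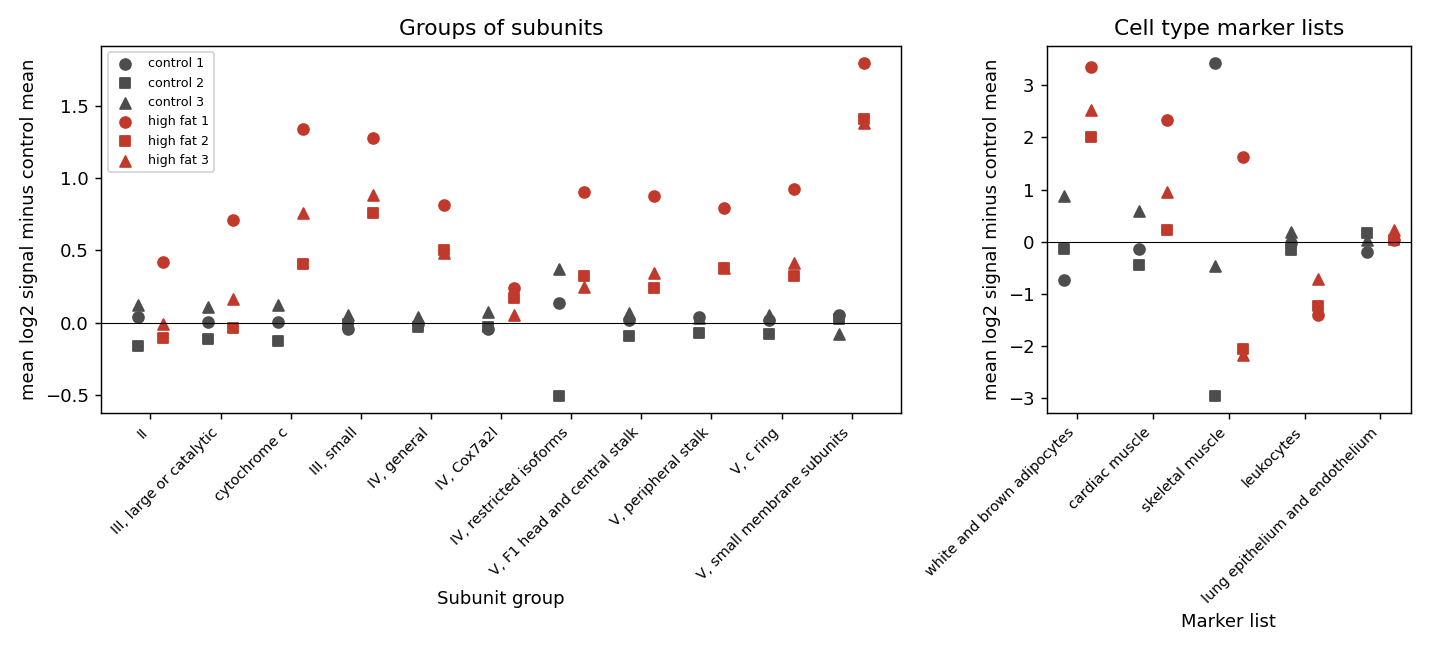
Mean log2 signal per mouse relative to the control mean for the groups of subunits (left) and for lists of cell type markers (right), with control mice in grey, high fat mice in red and a marker shape for each replicate number. The small subunits of complex III, cytochrome c, the general subunits of complex IV and every group of complex V exceed all controls in all 3 high fat mice. Complex II and the restricted isoforms of complex IV do so only in replicate 1, and adipocyte markers are higher in all 3.

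Markers of lung cells and of other cell types also moved with diet or mouse. Of the 10 lung markers, Foxj1 rose (log2 1.05, limma adjusted p = 0.044), the endothelial gene Pecam1 fell (log2 -0.6, limma adjusted p = 0.024) and 8 were not called, with summed signals of 165543 to 264053 in control and 219569 to 249592 in high fat mice. Of 11 markers of white and brown adipocytes, 9 were tested and 8 rose, and their summed signal was 2921 to 6677 in control and 23797 to 37995 in high fat mice. No marker was listed at 0, and the brown fat gene Ucp1 ranged from 3 to 1199. This list includes Cox8b and Cox7a1, the subunits left out of the members, and both are among the 8 that rose. In high fat replicates 1, 2 and 3 Cox8b had signals of 2068, 382 and 850 and Cox7a1 of 1896, 255 and 436. Their rise was thus uneven among the mice, where the score of the whole adipocyte list was 3.34, 2.01 and 2.52. Which cells the signals of Cox8b and Cox7a1 came from, adipocytes, muscle or others, was not tested. Of 12 cardiac muscle markers, 11 were tested and only Myl7 rose, with summed signals of 22404 to 49453 and 46825 to 167781. The cardiac score was 2.33 in high fat replicate 1, 0.23 in replicate 2 and 0.95 in replicate 3, and -0.15, -0.44 and 0.59 in the control mice, with a list median of 1.22. Skeletal muscle markers, 10 of 12 tested and 0 called (limma, 0 at an unadjusted p under 0.05), were highest in control replicate 1 (summed signal 71345) and ranged over 828 to 71345 in control and 1582 to 23232 in high fat mice. Leukocyte markers fell for 5 of 9 tested, with sums of 14825 to 23109 and 7046 to 10756. The 3'/5' signal ratio, a sign of RNA quality, was 0.743 to 0.795 for Gapdh in control and 0.854 to 0.957 in high fat mice. For b-Actin it was 1.19 to 1.44 and 1.5 to 1.55. The 3' control probe sets of both reference genes overlapped between the groups (Gapdh 10068 ± 2798 and 11431 ± 2587, Actb 39616 ± 10332 and 43330 ± 1326, SD, n = 3 each). The part that the lung, adipocyte, muscle and leukocyte markers and these ratios have in the differences of the subunits was not tested.

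**Figure D4:**
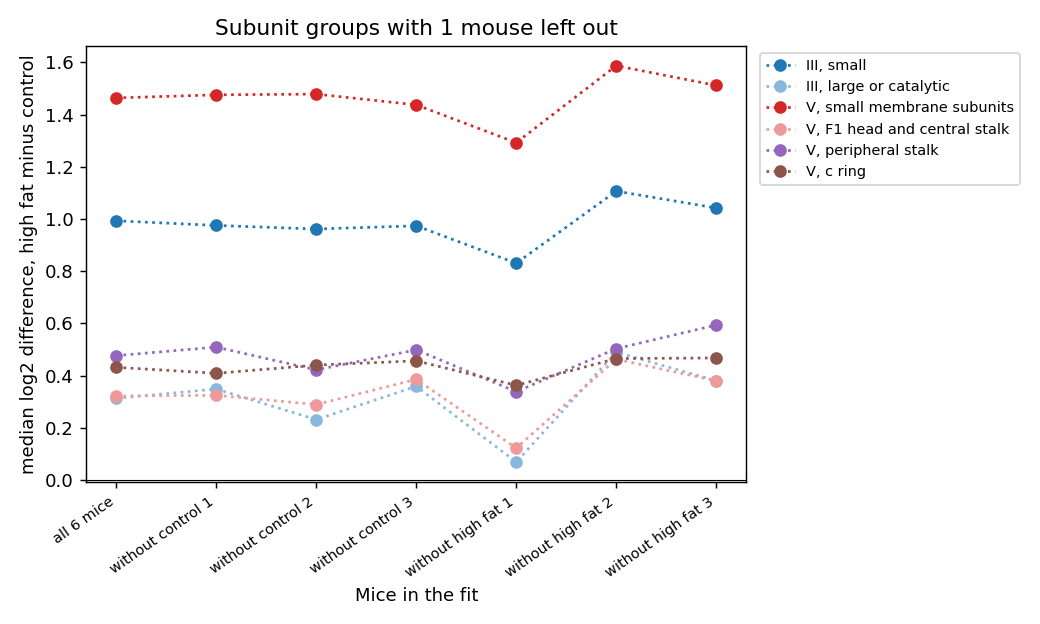
Median log2 difference, high fat minus control, of 6 groups of subunits of complexes III and V in the fit of all 6 mice and with each mouse left out; dotted lines only link the points of a group. Small subunits stay between 0.83 and 1.59, while the large or catalytic subunits of complex III and the F1 head and central stalk of complex V are lowest without high fat replicate 1 (0.07 and 0.12).

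Other genes around these complexes were counted in the same fit, from lists chosen for their function, and their counts stand beside the 6.27 percent of all genes called higher and the 3.1 percent called lower. Of 34 tested genes listed as complex I subunits by their Nduf symbols, 16 rose and 0 fell, with a median log2 difference of 0.59. The largest of these was Ndufa3, a small subunit (2.01, limma adjusted p = 0.00595). The symbols also take in Ndufa4, which rose (0.59, limma adjusted p = 0.0332), and Ndufa4l2, which was not called (-0.01). Whether these belong to complex I was not examined. Among the iron-sulphur and flavoprotein subunits that carry electrons Ndufs7 rose (0.69, limma adjusted p = 0.0227). Ndufs1, Ndufs8, Ndufv1 and Ndufv2 were not called (0.4, 0.2, 0.32 and 0.32). Some accessory subunits rose, such as Ndufa1 (1.66, limma adjusted p = 0.00252), and others, such as Ndufa8 and Ndufb8, both with a difference of 0.26, were not called. Of 31 assembly factors of complexes II to V, 6 rose and 1, Ttc19, fell (median 0.14), and Cox17, the copper chaperone of complex IV, had the largest rise (1.5, limma adjusted p = 0.00565). Of 13 enzymes of the tricarboxylic acid cycle, in which complex II also takes part, 4 rose and 0 fell (median 0.35). Of 7 carriers and inhibitors beside complex V, only Atpif1, the inhibitor of ATP hydrolysis by the synthase, rose (log2 1, limma adjusted p = 0.00296). Of 16 regulators of mitochondrial gene expression, limma called 0 (2, Tfb1m and Twnk, had an unadjusted p under 0.05), and their median was 0.06. Among them Ppargc1a, Nrf1, Gabpa, Esrra and Tfam had log2 differences of 0.12, -0.46, 0, 0.01 and 0.

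Nuclear genes of the respiratory chain are known to carry sites for NRF-1 and for ETS factors such as GABPA near their start. RefSeq promoter sequences (GRCm38.p6) were matched for 34 of the 46 genes, 73.9 percent. This is under the 80 percent needed to set the members against other genes, so a comparison of shares is void and single genes are described. In the 250 bases before the start, both strands were searched for GCGCATG, part of the palindrome that NRF-1 binds, and for CCGGAAG, an ETS core. The first occurs in 3.24 percent and the second in 6.91 percent of all 32851 promoter windows of that length. The NRF-1 letters were found for Atp5g2, Atp5k, Atp5l, Cox5b, Cox6a1, Cycs and Sdhb, and the ETS letters for Atp5e, Atp5h, Atp5j, Atp5l, Cox6a1, Cox6b1, Sdhd, Uqcr11 and Uqcrh. These lists hold genes that rose and genes that were not called. As examples, the windows of 4 genes that rose and of Atp5b, which was not called and holds neither motif, were picked by hand. No link between motif and rise can be read from this choice, since Cox6a1, which was not called, holds both motifs. The windows are given 5′ to 3′ on the strand of the gene, with the motif or its reverse complement in capitals. Their positions are chr5:108434400-108434649, minus strand for Atp5k, chr9:44920743-44920992, minus strand for Atp5l, chr10:80406822-80407071, minus strand for Uqcr11, chr7:30626115-30626364, minus strand for Cox6b1 and chr10:128083057-128083306, plus strand for Atp5b.
Atp5k: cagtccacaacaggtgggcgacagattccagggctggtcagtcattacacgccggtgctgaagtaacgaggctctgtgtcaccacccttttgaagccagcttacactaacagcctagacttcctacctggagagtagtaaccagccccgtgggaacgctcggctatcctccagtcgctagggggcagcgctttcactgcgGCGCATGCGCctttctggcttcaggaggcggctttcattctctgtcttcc
Atp5l: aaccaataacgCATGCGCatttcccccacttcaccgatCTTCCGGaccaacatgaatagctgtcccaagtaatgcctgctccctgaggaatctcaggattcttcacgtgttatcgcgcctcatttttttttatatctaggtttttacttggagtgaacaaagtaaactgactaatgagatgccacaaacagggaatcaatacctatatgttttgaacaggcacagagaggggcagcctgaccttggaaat
Uqcr11: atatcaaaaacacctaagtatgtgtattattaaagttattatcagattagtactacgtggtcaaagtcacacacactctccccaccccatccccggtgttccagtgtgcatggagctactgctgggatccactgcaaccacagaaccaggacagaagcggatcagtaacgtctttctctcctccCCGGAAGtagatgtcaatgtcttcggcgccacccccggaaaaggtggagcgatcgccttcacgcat
Cox6b1: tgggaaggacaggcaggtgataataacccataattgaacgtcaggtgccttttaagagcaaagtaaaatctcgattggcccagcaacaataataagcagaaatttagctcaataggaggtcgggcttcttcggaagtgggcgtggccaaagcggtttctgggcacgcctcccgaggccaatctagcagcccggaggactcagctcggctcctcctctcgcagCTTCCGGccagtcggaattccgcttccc
Atp5b: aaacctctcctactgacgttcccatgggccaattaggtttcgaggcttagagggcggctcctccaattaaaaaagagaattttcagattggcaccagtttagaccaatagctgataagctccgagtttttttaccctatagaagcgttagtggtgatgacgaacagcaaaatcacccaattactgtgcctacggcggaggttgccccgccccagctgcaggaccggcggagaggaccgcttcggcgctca
The NRF-1 letters of Atp5k, the gene with the largest difference among the called members, begin at positions -50 and -47 from its start on opposite strands and overlap, so that their capitals run together. In Atp5l they begin at -239, clear of the ETS letters. The ETS letters begin at -212 in Atp5l, -66 in Uqcr11 and -28 in Cox6b1. A match describes the sequence, and binding was not measured.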

How the data were processed

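The authors made the deposited intensity values with MAS5, per the submitters' processing notes; the labels give neither its version nor its settings. On each of the 6 arrays the trimmed mean (2 percent of probe sets trimmed at either end) was 500, so scaling preceded deposit. Values under 1 were set to 1 and log2 was taken. Probe sets with a mean log2 signal at or above the 40th percentile (6.14, a signal of 70.3) were tested, 27022 of 45101, after 64 control probe sets were left out. The test was limma 3.58.1 in R 4.3.3, with an intensity trend, 1 term for diet, 4 residual degrees of freedom and Benjamini-Hochberg adjustment over tested probe sets. On data simulated for this comparison over 27022 probe sets, 71.6 percent of changes of log2 2 and 20.4 percent of changes of log2 1 were called. The simulation changed 88 probe sets by log2 2 and 93 by log2 1, against 3486 called in the data. With so few changes the adjustment asks for smaller p-values, so these shares can be too low for the data. An uncalled difference is still not evidence of equality. Only 3 arrays per group limit the precision. The labels number the replicates without naming litters or batches.

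Named genes are the 8 with the smallest p in each complex, the isoform pairs, genes whose probe sets were called against their representative and genes with no tested probe set. Atp5a1, Atp5b, Atp5d, Atp5j, Atp5o, Atp5pb, Cyc1, Uqcrc2 and the genes named from other lists were added after their values were seen. The members and lists were chosen with earlier results of these data known. Alternatives were other normalizations (quantile, median centring), 32 added before log2, other filters, variance models and representatives, the replicate number as a block, and mice left out.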

Additional observations from a re-analysis of the deposited data

How the results depend on the processing

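The median log2 difference of the members stayed above 0 in every alternative run, from 0.35 with quantile normalization (0.39 without both mice numbered 1) to 0.78 with median centring. Under median centring 31 genes and 57 probe sets were called higher and 1 probe set lower; that scaling raised the share of all probe set calls that were higher from 35.9 to 80.1 percent, and quantile normalization to 44.8 percent. Called lower was 1 probe set with quantile normalization and 0 with the filter at the 60th percentile or without both mice numbered 1. One mouse left out gave 13 to 17 genes and 20 to 33 probe sets called higher, 0 to 2 probe sets called lower and a median of 0.4 to 0.57. Of the 20 genes called, 11 were called in every alternative that could be run for them, and these were Atp5e, Atp5h, Atp5k, Atp5l, Atp5md, Atp5mpl, Cox6b1, Cox6c, Cox7a2, Uqcr10 and Uqcr11. When all probe sets of each gene were averaged, dim ones included, Atp5g2 turned to -0.35, gene Cox5b to -0.074 and gene Cox8a to -0.094, all uncalled; gene Atp5j2 lost its call (0.48, adjusted p = 0.0891), as did Cox4i1, Cycs and Uqcrq, and gene Atp5a1 was called higher (0.68, adjusted p = 0.0463). With a representative free of the _x_at and _s_at suffixes 1 gene, Atp5c1, was called lower (log2 -1.1), since its bright probe set is of that kind, and Atp5d, Atp5e and Uqcrq had no such probe set to test. Replicate numbers are shared by the groups, but same-numbered mice did not deviate together in every pair (correlations of deviations 0.17, 0.11 and -0.04). The fit with the replicate block called 21 genes and 39 probe sets higher, 3 probe sets and 1 gene lower, the gene Cox7c (adjusted p = 0.0465). Dim probe sets limit what can be said of Cox7c, Cox4i2, Cox8c and Cox7b2.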
